A study of Homo sapiens with 10 samples.

Results

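The NBPF genes of human chromosome 1 were described across 5 lists of DNA methylation peaks from HEK293T, a cell line derived from human embryonic kidney. The 10 members are NBPF1, NBPF3, NBPF9, NBPF10, NBPF11, NBPF12, NBPF14, NBPF15, NBPF19 and NBPF20, out of 19974 protein-coding genes on chromosomes 1 to 22 and X. They were selected on the peak numbers of NBPF19 and NBPF14, which stood out when the same lists were compared, so peak numbers are given here as a description and not as a finding. A peak was counted for a member when it overlapped the gene body or the 2 kb on either side of it. A peak was counted once for the family.

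Methylated DNA immunoprecipitation sequencing (MeDIP-seq) captures sonicated DNA with an antibody against methylated cytosine, and captured fragments pile up as peaks. The 5 conditions carry the labels WT, K rep KO, K non-rep KO, EV and KD, each with 1 immunoprecipitated and 1 input library, which makes 10 samples. The design text of the series names the knockdown as KCNQ1OT1_K KD, after a long non-coding RNA antisense to the potassium channel gene KCNQ1. The labels spell out neither EV nor K, rep or non-rep, and the sources used here do not say whether a KO line is a single clone. KD was set beside EV, both KO conditions beside WT, the KO conditions beside each other, and EV beside WT. These comparisons share lists, and with 1 list per condition no test between conditions was possible. Bracketed 95% ranges below cover counting error alone, and neighbouring peaks are not independent. The total number of peaks was 30732 in WT, 59098 in K rep KO, 53396 in K non-rep KO, 87815 in EV and 53919 in KD.

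NBPF stands for neuroblastoma breakpoint family. The genes encode proteins built from tandem Olduvai domains, formerly called DUF1220, and most members sit in or near the duplicated blocks of 1q21 that expanded in the human lineage. What the individual proteins do is little defined. Copies are so alike that a short read can often be placed on several of them, so a peak printed at one member may hold fragments from another, and family totals come before single members.

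Promoter sequences show how alike some of the copies are. RefSeq windows of GRCh38.p14, which run from 250 bases before a gene's start to 50 bases after it, were found for 9 members, with NBPF14 having windows at 2 starts and NBPF20 having none. The 250 upstream bases of 6 windows follow, 5′ to 3′ on the gene's strand, with each CpG, the dinucleotide at which human DNA is mostly methylated, in capitals. NBPF9 and NBPF15 are shown as a near-identical pair rich in CpG, and NBPF11 and NBPF12 as another near-identical pair. NBPF1 is shown because peaks of both KO lists lie close to its start, and NBPF19 because it holds the most peaks.
NBPF9, chr1:149103552-149103801, minus strand: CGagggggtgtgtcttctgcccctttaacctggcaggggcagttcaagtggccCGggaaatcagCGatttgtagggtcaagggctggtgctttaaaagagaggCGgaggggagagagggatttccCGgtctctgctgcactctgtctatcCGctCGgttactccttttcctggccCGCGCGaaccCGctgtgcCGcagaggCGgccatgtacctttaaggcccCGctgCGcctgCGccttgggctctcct
NBPF15, chr1:144461670-144461919, minus strand: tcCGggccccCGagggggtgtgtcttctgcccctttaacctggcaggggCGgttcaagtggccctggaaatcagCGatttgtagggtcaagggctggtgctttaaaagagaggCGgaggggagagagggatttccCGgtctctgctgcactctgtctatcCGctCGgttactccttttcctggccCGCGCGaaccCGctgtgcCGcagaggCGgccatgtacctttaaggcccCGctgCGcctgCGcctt
NBPF11, chr1:148152282-148152531, minus strand: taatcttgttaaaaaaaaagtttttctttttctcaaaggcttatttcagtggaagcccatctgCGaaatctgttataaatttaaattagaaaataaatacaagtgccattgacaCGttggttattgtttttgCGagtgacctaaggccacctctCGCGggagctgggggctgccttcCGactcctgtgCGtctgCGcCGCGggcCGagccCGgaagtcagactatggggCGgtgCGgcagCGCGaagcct
NBPF12, chr1:146938074-146938323, plus strand: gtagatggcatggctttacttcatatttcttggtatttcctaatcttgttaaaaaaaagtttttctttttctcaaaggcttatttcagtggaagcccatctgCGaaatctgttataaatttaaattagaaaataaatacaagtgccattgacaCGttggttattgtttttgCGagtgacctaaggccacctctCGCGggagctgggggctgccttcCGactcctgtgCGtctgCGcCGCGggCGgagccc
NBPF1, chr1:16613565-16613814, minus strand: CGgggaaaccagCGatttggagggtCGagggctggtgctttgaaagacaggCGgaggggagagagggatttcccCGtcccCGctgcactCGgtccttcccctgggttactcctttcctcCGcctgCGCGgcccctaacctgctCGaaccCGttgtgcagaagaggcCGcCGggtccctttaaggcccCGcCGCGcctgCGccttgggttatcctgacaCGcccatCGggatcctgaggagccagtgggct
NBPF19, chr1:149474795-149475044, plus strand: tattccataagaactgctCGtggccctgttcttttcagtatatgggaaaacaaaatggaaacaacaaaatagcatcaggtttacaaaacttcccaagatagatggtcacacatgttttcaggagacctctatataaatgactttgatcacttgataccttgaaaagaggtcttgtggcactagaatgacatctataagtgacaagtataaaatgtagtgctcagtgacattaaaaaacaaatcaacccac

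Pairs of whole windows were compared over their aligned columns, with an inner gap counted as a difference. NBPF9 and NBPF15 shared 286 of 291 columns (98.3%), and NBPF11 and NBPF12 shared 259 of 261 (99.2%). The window of NBPF10 and the inner window of NBPF14 shared 264 of 265 columns (99.6%). NBPF1 and NBPF3, the members on the short arm of the chromosome, shared 253 of 289 (87.5%). Most other pairs were far less alike. NBPF19 was no more than 57.1% identical to any member, a value from 56 columns aligned with NBPF1. The upstream bases held 20 CpG in NBPF1 and in NBPF3, 17 in NBPF15, 16 in NBPF9 and in NBPF11, 11 in NBPF12, 3 in NBPF10, 2 and 3 at the starts of NBPF14, and 1 in NBPF19. Over all windows of the table the median was 11 CpG, and 52.2% of windows held at least 10. The copies thus fell into a group with 11 to 20 CpG upstream and a group with 1 to 3, which includes NBPF19 and NBPF14. NBPF12, the lowest of the former group, was at the median of all windows. None of the 10 member windows overlapped a peak in any list. Over the windows of all genes, 0.661% overlapped a peak in WT, 2.78% in K rep KO, 2.16% in K non-rep KO, 4.63% in EV and 2.82% in KD, so most windows of any gene were without a peak.

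The family held 27 peaks in WT, 22 in K rep KO, 16 in K non-rep KO, 25 in EV and 25 in KD. Counting ranges were 17.8 to 39.3 for WT, 13.8 to 33.3 for K rep KO, 9.15 to 26.0 for K non-rep KO and 16.2 to 36.9 for EV and for KD. The ranges overlapped, and the family number did not follow the length of the lists, since WT had the fewest peaks in all and the most in the family. As a share of its list the family made up 0.0879% in WT, 0.0372% in K rep KO, 0.0300% in K non-rep KO, 0.0285% in EV and 0.0464% in KD. Peaks per Mb of member region were 38.5 in WT, where all protein-coding gene regions together had 10.8, a ratio of 3.58. The same ratio of densities was 1.23 in K rep KO, 0.991 in K non-rep KO, 0.877 in EV and 1.51 in KD, with WT highest. WT did not keep the highest share of a list under stricter thresholds. With a −log10 q of at least 5 the family made up 0.0363% of WT, 0.04998% of K rep KO and 0.0633% of KD, and with a fold enrichment of at least 4 it made up 0.0310% of WT and 0.0417% of KD.

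Of the 0.701 Mb of member regions, family peaks covered 23625 bp in WT, 11627 bp in K rep KO, 9108 bp in K non-rep KO, 13968 bp in EV and 13908 bp in KD. WT thus had the largest covered length of the lists, and its family peaks were also the widest, with a median of 738 bp against 480.5 to 539.5 bp in the other lists. All peaks of WT were wide too, with a median of 748 bp against 505 to 522 bp elsewhere.

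**Figure D1:**
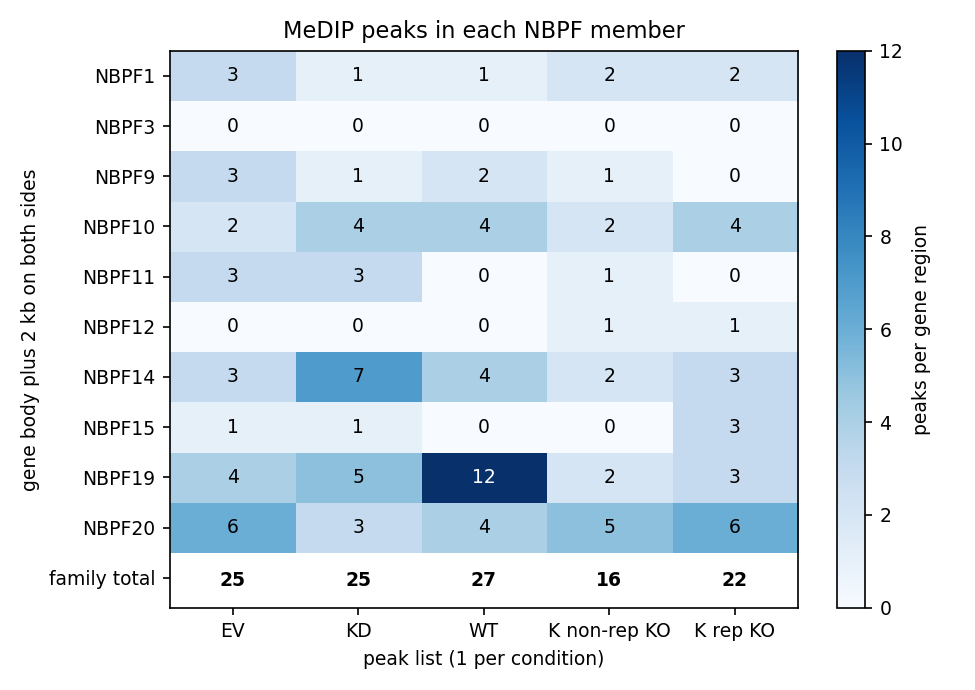
Number of MeDIP peaks overlapping each NBPF member (vertical axis, gene body plus 2 kb on both sides) in each peak list (horizontal axis, 1 list per condition); the bottom line is the family total and the colour gives peaks per gene region. NBPF19 in WT holds 12 peaks, the most of any member in any list, and NBPF3 holds none.

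The long-arm members NBPF19, NBPF20, NBPF14 and NBPF10 held most of the family's 115 peaks, with 26, 24, 19 and 16 over the lists. NBPF19 (chr1:149475045-149556361, plus strand) had 12 peaks in WT, 3 in K rep KO, 2 in K non-rep KO, 4 in EV and 5 in KD. Its WT value lay above every other list, and its covered length went with it, at 11845 bp in WT against 914 to 3719 bp elsewhere. NBPF14 (chr1:148531385-148596011, minus strand) had 4, 3, 2, 3 and 7 peaks in the same order, with KD highest. NBPF20 (chr1:145289900-145425603), the longest member, had 4, 6, 5, 6 and 3. NBPF10 (chr1:146064699-146144804, minus strand) had 4, 4, 2, 2 and 4. Neither NBPF20 nor NBPF10 set 1 list apart from the others.

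The remaining members were sparse. NBPF1 (chr1:16562423-16613564, minus strand), on the short arm, had 1 peak in WT, 2 in K rep KO, 2 in K non-rep KO, 3 in EV and 1 in KD. NBPF9 (chr1:149052186-149103551, minus strand) had 2, 0, 1, 3 and 1 in that order, and NBPF11 (chr1:148102151-148152281, minus strand) had 0, 0, 1, 3 and 3. NBPF15 (chr1:144421390-144461669, minus strand) had 0, 3, 0, 1 and 1, and NBPF12 (chr1:146938324-146996198, plus strand) had 1 in each KO list and none elsewhere. NBPF3 (chr1:21436789-21484900, plus strand), also on the short arm, was the member without a peak in any list. Numbers this small leave the order of these members within counting error. Per Mb of region and averaged over lists, NBPF19 had 60.9 peaks and NBPF14 55.4, ahead of NBPF10 at 38.1, NBPF20 at 34.4 and NBPF1 at 32.6.

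The KD list was compared with EV to ask whether the knockdown went with a different number of family peaks. Both held 25, a ratio of 1.00 [0.551 to 1.82], while all peaks of the lists stood at a ratio of 0.614. The family's ratio over that of all peaks, called the relative ratio here, was therefore 1.63 [0.898 to 2.96], a range that includes 1. It was 2.67 [1.00 to 7.28] on peaks with a −log10 q of at least 5, from 11 peaks against 9. Over gene bodies without the added 2 kb it was 1.85 [1.00 to 3.44]. The lower ends of both ranges lay just above 1, but both include NBPF14 and NBPF19, whose numbers chose the family. Nothing is therefore read from these ranges. Over members, 3 had more peaks in KD, 3 had fewer and 4 had equal numbers, 2 of these 4 with no peak in either list. This split was not counted over all genes in any comparison, so it is a description only. Of the 5 members with at least 5 peaks in both lists together, 1 reached 2-fold higher in KD and none reached 0.5-fold, with 1 added to each number. That member was NBPF14, with 7 peaks in KD and 3 in EV, a ratio of 2.33 [0.533 to 14.0]. Of 6073 protein-coding genes with at least 5 peaks, 0.774% reached 2-fold higher and 31.3% reached 0.5-fold, and NBPF14 belongs to the values that chose the family, so nothing is read from its count. The median log2 change was 0.26 over those 5 members and -0.58 over those protein-coding genes. Scaled to the ratio of all peaks, 532 genes were past 2-fold higher and 368 past 0.5-fold, in place of 47 and 1899. Without NBPF14 the relative ratio was 1.33 [0.674 to 2.60].

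The K rep KO list held 22 family peaks where WT held 27, a ratio of 0.815 [0.442 to 1.49] beside 1.92 for all peaks. The relative ratio was 0.424 [0.230 to 0.773]. Of the members, 4 had more peaks in K rep KO, 3 had fewer and 3 had equal numbers, 2 of these 3 with no peak in either list. Among 4 members with at least 5 peaks, none reached 2-fold higher and 1 reached 0.5-fold, where 48.5% and 0.697% of 3443 protein-coding genes did. This was NBPF19, with 3 peaks against 12, a ratio of 0.250 [0.0453 to 0.926]. Its number is among the values that chose the family, so nothing is read from it. The median log2 change of those 4 members was -0.16, and that of the protein-coding genes 0.85. Without NBPF19 the relative ratio was 0.659 [0.317 to 1.39], a range that includes 1, so the distance from 1 rested in good part on that gene. Restricted to peaks with a −log10 q of at least 5, the direction turned: 12 peaks stood against 5 in WT, a relative ratio of 1.38 [0.452 to 4.99]. With a fold enrichment of at least 4 it was 0.866 [0.270 to 3.23]. The split of protein-coding genes was 1670 higher and 24 lower, and 441 and 294 once scaled to the ratio of all peaks.

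The K non-rep KO list held 16 family peaks beside the same 27 of WT, a ratio of 0.593 [0.298 to 1.14] where all peaks gave 1.74. The relative ratio was 0.341 [0.172 to 0.656]. More peaks were found in 4 members, fewer in 4 and equal numbers in 2, which had no peak in either list. Among the 4 members with at least 5 peaks, none reached 2-fold higher, where 44% of 3235 protein-coding genes did. NBPF19, with 2 peaks against 12, reached 0.5-fold, where 0.773% of the genes did. NBPF19 helped choose the family, so nothing is read from its count. The median log2 change was -0.74 for these 4 members and 0.74 for the genes. Without NBPF19 the relative ratio was 0.537 [0.240 to 1.19], and with a fold enrichment of at least 4 it was 0.700 [0.191 to 2.80], ranges that again include 1. The split of genes was 1423 higher and 25 lower, and 408 and 332 once scaled to the ratio of all peaks.

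Between the KO conditions, K rep KO held 22 family peaks and K non-rep KO 16, a ratio of 1.38 [0.690 to 2.80] beside 1.11 over all peaks, and the relative ratio was 1.24 [0.623 to 2.53]. More peaks were found for K rep KO in 5 members, fewer in 2 and equal numbers in 3, 1 of these 3 with no peak in either list. None of the 4 members with at least 5 peaks reached 2-fold in either direction, where 10.1% of 4651 protein-coding genes were higher and 5.44% lower. NBPF15 had 3 peaks in K rep KO and none in K non-rep KO, and too few in all to enter that count. The family thus did not separate the KO conditions beyond counting error.

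EV and WT, taken here as the unperturbed conditions, gave the lowest relative ratio of the 5 comparisons. EV held 25 family peaks and WT 27, a ratio of 0.926 [0.515 to 1.66], where all peaks gave 2.86, so the relative ratio was 0.324 [0.180 to 0.580]. It was 0.655 [0.197 to 2.49] with a −log10 q of at least 5 and 0.750 [0.246 to 2.72] with a fold enrichment of at least 4, ranges that include 1. More peaks were found for EV in 5 members, fewer in 3 and equal numbers in 2, which had no peak in either list. Among 5 members with at least 5 peaks, none reached 2-fold higher, where 73.5% of 4964 protein-coding genes did. NBPF19, with 4 peaks against 12, reached 0.5-fold, where 0.101% of the genes did. Here too nothing is read from the count of NBPF19, which helped choose the family. Without NBPF19 the relative ratio was 0.490 [0.241 to 1.02]. The split of genes was 3650 higher and 5 lower, and 912 and 702 once scaled to the ratio of all peaks. The low relative ratios of both KO conditions therefore share the WT list with an equally low value of EV, a condition without a knockout in its label. The KO state and what sets the WT list apart cannot be told apart.

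**Figure D2:**
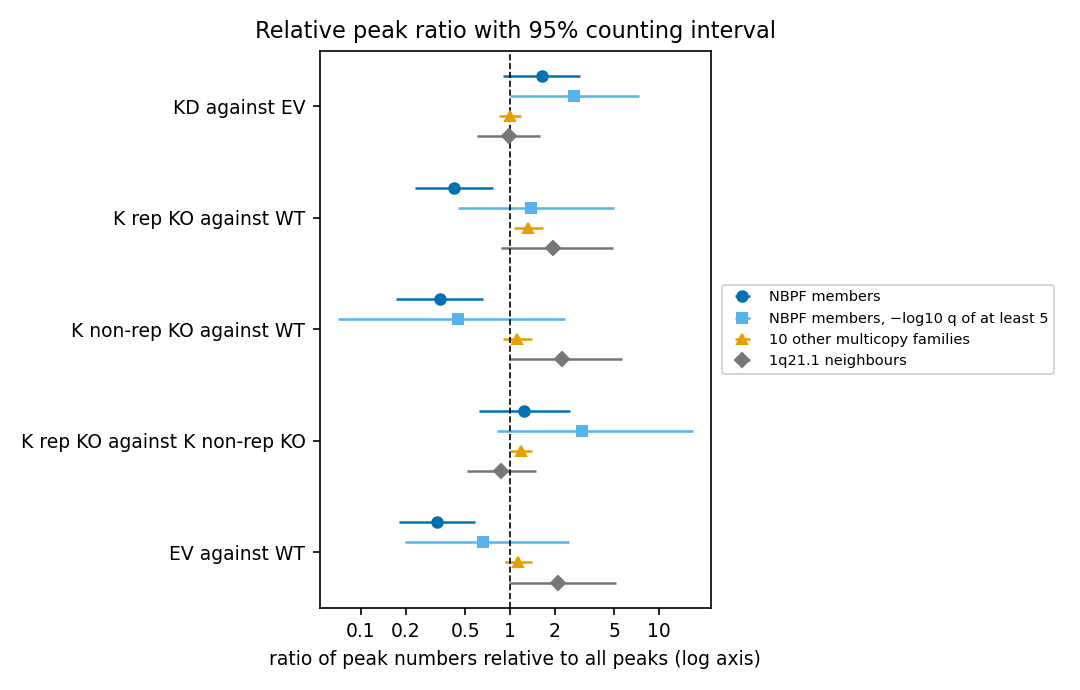
Ratio of peak numbers over that of all peaks (horizontal log axis) for each comparison, with 95% counting intervals as lines and equality as the dashed line; circles are NBPF members, squares their peaks with a −log10 q of at least 5, triangles 10 other multicopy families and diamonds the 1q21.1 neighbours. The circles lie below 1 in the 3 comparisons with WT, at 0.424, 0.341 and 0.324, where the triangles lie at 1.33, 1.12 and 1.14. These comparisons share the WT list, and NBPF19, highest in WT, helped choose the family. Without NBPF19 the ratios were 0.659, 0.537 and 0.490, with ranges that include 1.

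Peak strength was described with the authors' fold enrichment, a ratio over the caller's local background at the summit. The median family fold was 3.07 in WT, 3.84 in K rep KO, 3.65 in K non-rep KO, 3.91 in EV and 3.99 in KD, below the median of all peaks in each list (4.08, 4.39, 4.44, 4.30 and 4.18). The gap was widest in WT. The caller's −log10 q rises with the confidence in a peak. The number of family peaks with a −log10 q of at least 5 was 5 of 27 in WT, 12 of 22 in K rep KO, 3 of 16 in K non-rep KO, 9 of 25 in EV and 11 of 25 in KD. This was a smaller share than over all peaks in WT (18.5% against 44.8%), K non-rep KO (18.8% against 34.3%) and EV (36.0% against 43.1%), and a larger one in K rep KO (54.5% against 40.6%) and KD (44.0% against 32.2%). The highest −log10 q of the family, 13.5, belonged to a WT peak of NBPF20 (chr1:145387093-145388705) with 5.62-fold enrichment over background.

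Fold and −log10 p together give the number of fragments piled up at a summit and the background they were tested against. Pileup and background are thus not observations separate from fold. A whole-number pileup was found for all 115 family peaks. The median family pileup was 17 in WT, 16 in K rep KO, 11 in K non-rep KO, 16 in EV and 15 in KD, above the 14, 12, 10, 12 and 11 of all peaks. Family summits thus carried more fragments than a typical peak and less enrichment. Their background was higher as well, at a median of 3.78 times the list's most common background in WT, 3.05 in K rep KO, 2.20 in K non-rep KO, 2.10 in EV and 2.73 in KD. All peaks stood at 1.82, 1.48, 1.28, 1.39 and 1.33. A background of at least 2 times the common one was found under 25 of 27 family peaks in WT, 15 of 22 in K rep KO, 10 of 16 in K non-rep KO, 15 of 25 in EV and 18 of 25 in KD, against 24.5% to 47.7% of all peaks.

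**Figure D3:**
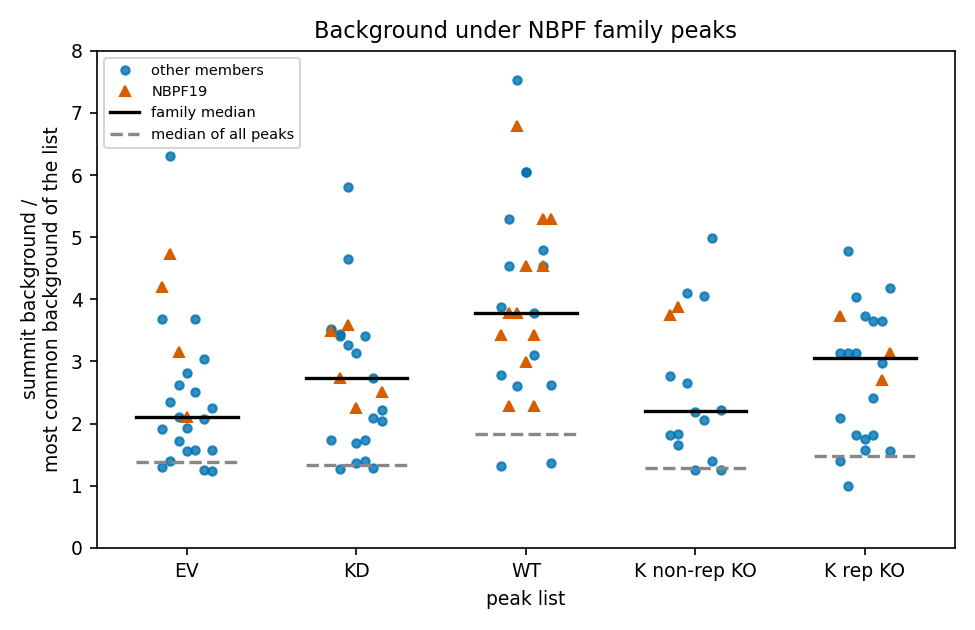
Summit background of each NBPF family peak divided by the most common background of its list (vertical axis, no unit) in each peak list (horizontal axis); triangles are NBPF19 peaks, circles those of other members, solid lines family medians and dashed lines medians of all peaks. The family medians, 2.10 to 3.78, lie above the medians of all peaks, 1.28 to 1.82, and every NBPF19 peak lies at 2.10 or more.

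The background differed between members. Over all lists its median multiple was 3.54 for the 26 NBPF19 peaks, 3.41 for NBPF14, 2.81 for NBPF20 and 2.80 for NBPF10. It was 2.55 for the 2 peaks of NBPF12, 1.92 for NBPF1, 1.81 for NBPF15, 1.37 for NBPF11 and 1.32 for NBPF9. The members with most peaks were thus those on the highest background. Fold, from which the background was worked out, went the other way. Its median was 3.08 in NBPF19 and 3.56 in NBPF20 against 4.75 in NBPF15 and 4.70 in NBPF9. Of the peaks with a background under 2 times the common one, the family held 2 in WT, 7 in K rep KO, 6 in K non-rep KO, 10 in EV and 7 in KD. On these peaks the relative ratio to WT was 1.32 [0.252 to 13.0] for K rep KO, 1.21 [0.217 to 12.3] for K non-rep KO and 1.22 [0.259 to 11.4] for EV, so the direction turned in each, on 2 WT peaks. This restriction was chosen after the backgrounds were seen. Whether a raised background, read placement among copies or copy number had a part in the family's values was not tested.

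The family was chosen on numbers of peaks and not on their places, but a gene picked for many peaks in 1 list tends to hold peaks that the other lists lack, so the places are not independent of the choice and are given as a description. Family peaks of all lists merged into 82 regions, of which 58 (70.7%) held a peak of 1 list alone, 17 of 2 lists, 6 of 3 lists, none of 4 and 1 of all 5. Over all 144156 merged regions, 56.5% belonged to 1 list and 7.97% to all 5. The region found in all lists lies in NBPF10 at chr1:146067172-146068551, close to the 3′ end of the gene, and its peaks had 2.53- to 3.44-fold enrichment. In 4 of the 5 lists its fold was below the family median.

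The share of family peaks that met a peak of any other list was below that of all peaks in each list. It was 10 of 27 in WT (37.0%), 12 of 22 in K rep KO (54.5%), 11 of 16 in K non-rep KO (68.8%), 13 of 25 in EV (52.0%) and 11 of 25 in KD (44.0%). In the same order all peaks had 84.8%, 74.6%, 75.2%, 61.0% and 73.4%. The range for the WT family peaks, 21.5% to 55.8%, lay under the value of all WT peaks. The ranges of EV and K non-rep KO included the values of their lists. Nothing is read from these ranges, since neighbouring peaks are not independent. NBPF19, which helped choose the family, held 12 of the 27 WT peaks. Of the 27 WT family peaks, 4 met an EV peak (14.8%), 6 a K rep KO peak (22.2%) and 3 a K non-rep KO peak (11.1%), where all WT peaks gave 68.6%, 63.2% and 59.9%. Without NBPF19 and NBPF14, whose numbers chose the family, the share was 4 of 11 in WT (36.4%), 8 of 16 in K rep KO, 7 of 12 in K non-rep KO (58.3%), 7 of 18 in EV (38.9%) and 7 of 13 in KD (53.8%), a restriction added after the data were seen.

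For comparison, all peaks with a −log10 q under 5 met another list in 76.1% of cases in WT, 66.9% in K rep KO, 68.2% in K non-rep KO, 50.9% in EV and 67.6% in KD. The EV value is close to the 52.0% of the EV family peaks. All peaks on a background of at least 2 times the common one met another list in 93.2% of cases in WT and in 80.8% to 92.3% in the other lists. The 10 other multicopy families had 88.1% in WT and between 69.2% and 82.2% in the other lists.

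**Figure D4:**
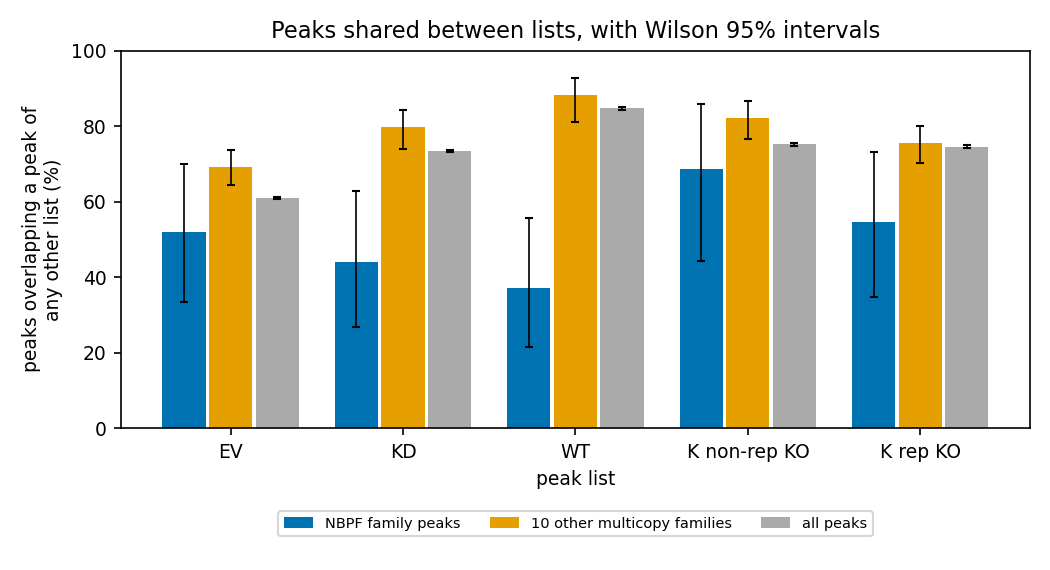
Percent of peaks overlapping a peak of any other list by at least 1 bp (vertical axis) in each peak list (horizontal axis), for NBPF family peaks, 10 other multicopy families and all peaks, with Wilson 95% intervals as error bars. In WT the NBPF bar stands at 37.0% beside 88.1% and 84.8%, but peak numbers of NBPF19, highest in WT, helped choose the family.

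Within NBPF19 the 12 WT peaks were spread along most of the gene. Gaps between neighbouring summits were 4450, 9497, 4783, 5384, 15096, 3787, 4924, 4257, 4532, 616 and 4166 bp, and 8 of these 11 gaps lay between 3500 and 5500 bp, a range picked after the gaps were seen. The Olduvai domains of NBPF19 lie in tandem repeats, but repeat positions were not analysed here. The enrichment of these peaks ran from 2.34- to 4.32-fold and their background from 2.28 to 6.80 times the common one. Of the 12, 4 met a peak of another list, between 17.5 and 70.4 kb from the gene's start. Of all WT peaks, 84.8% met another list, but NBPF19 was picked partly for its many WT peaks. In KD the widest peak of NBPF19 was 1865 bp long (chr1:149521328-149523192) and met both K non-rep KO peaks of the gene, in a stretch where WT had none.

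NBPF14, the member with the highest KD number, had 7 KD peaks between 148532718 and 148575611 with 3.17- to 4.85-fold enrichment. Of these, 1 met an EV peak and 1 a WT peak. A peak 2.4 kb inside the gene's start was found in EV (chr1:148593184-148593716, 5.26-fold) and in K non-rep KO (chr1:148593097-148593687, 4.93-fold), with no peak of the other lists there. Another place near the 3′ end was held by a peak of WT and of each KO list, at 2.99-fold in WT, 4.33-fold in K rep KO and 2.92-fold in K non-rep KO. Of the 7 KD peaks of NBPF14, 5 thus lay where no other list had a peak. Of all KD peaks, 73.4% met a peak of another list. NBPF14 was picked partly for its many KD peaks, which favours such places, so nothing is read from this count.

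**Figure D5:**
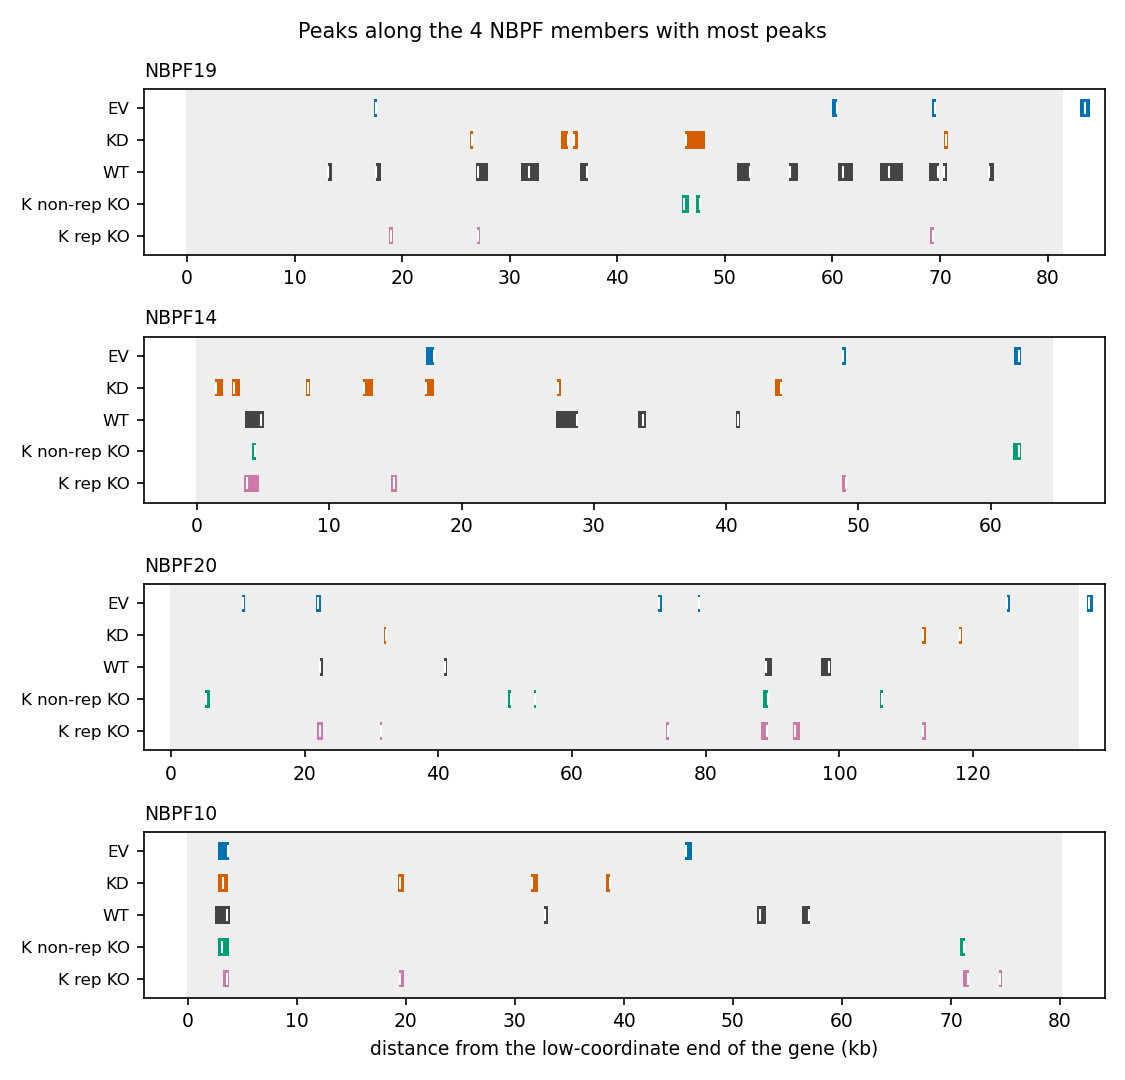
Peaks of each list (vertical axis) along NBPF19, NBPF14, NBPF20 and NBPF10, with distance from the low-coordinate end of the gene in kb (horizontal axis); boxes are peaks, white lines their summits and the grey band the gene body. The place near 3 to 4 kb in NBPF10 holds a peak in all 5 lists, while the 12 WT peaks of NBPF19 run from 13.1 to 74.6 kb.

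NBPF1 held the peaks closest to a member's promoter. A peak of K non-rep KO (chr1:16614331-16614833, 3.84-fold) and one of K rep KO (chr1:16614404-16614803, 4.70-fold) overlapped each other upstream of the gene, with summits 1.12 and 1.10 kb before the start and the nearer edge 517 bp from the promoter window shown above. EV, KD and WT had no peak there. The K rep KO peak had a −log10 q of 7.83 and the K non-rep KO peak 3.12. This is 1 place among 82, and it was picked after the peaks were seen.

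Downstream of the start, a few peaks of different lists met with summits 4 to 6 kb into the gene, a distance picked after the summits were seen. In NBPF11, an EV peak of 1647 bp (chr1:148146622-148148268, 4.70-fold) met a KD peak and a K non-rep KO peak. In NBPF9 a WT peak and a KD peak met at 3.33- and 5.16-fold, and in NBPF1 an EV peak and a K non-rep KO peak met at 3.15- and 4.21-fold. Of the 115 family peaks, 11 also lay in the region of another annotated gene.

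Other genes were counted in the same way. The 13 other NBPF entries of the gene table, mostly pseudogenes and all but 2 of them on chromosome 1, held 3 peaks in WT, 7 in K rep KO, 4 in K non-rep KO, 9 in EV and 4 in KD, and 8 of them had a peak in some list. The fullest were the protein-coding NBPF26, with 2, 2, 1, 1 and 2 peaks, and NBPF8, with 0, 1, 2, 2 and 1. NBPF17P had 4 peaks over all lists, NBPF6 and NBPF25P had 3 each, and NBPF2P, NBPF4 and NBPF5P had 1 each. Their relative ratio to WT was 1.21 [0.277 to 7.27] for K rep KO and 0.767 [0.130 to 5.24] for K non-rep KO, ranges that include both 1 and the family's values.

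The 23 genes interspersed with NBPF in 1q21.1, a list in which GPR89A and GPR89B are copies of each other, held 8 peaks in WT, 30 in K rep KO, 31 in K non-rep KO, 48 in EV and 29 in KD. Relative to all peaks they were at 1.95 [0.873 to 4.92] in K rep KO against WT and 2.23 [1.00 to 5.62] in K non-rep KO against WT, on the other side of 1 from the family. The fullest were GPR89B, a Golgi acidity regulator gene, with 28 peaks over all lists, the ubiquitin ligase gene RNF115 with 23, the Wnt pathway gene BCL9 with 13, and CHD1L and LIX1L with 12 each. The 25 genes duplicated along with NBPF, led by SRGAP2 with 31 peaks, PDE4DIP with 30, SRGAP2C with 25 and SRGAP2B with 23, held 19, 45, 35, 73 and 36 peaks, and their relative ratios to WT were 1.23 for K rep KO and 1.06 for K non-rep KO. The 211 genes of 10 other multicopy families held 118, 301, 230, 383 and 236, with relative ratios to WT of 1.33 [1.07 to 1.66] and 1.12 [0.895 to 1.41]. Single families among them differed. In the comparisons with WT, the one nearest to NBPF was ANKRD36, a set of ankyrin repeat genes, with 14, 13, 9, 13 and 3 peaks. Its relative ratios to WT were 0.483 [0.209 to 1.11] for K rep KO, 0.370 [0.141 to 0.918] for K non-rep KO and 0.325 [0.141 to 0.745] for EV. For KD against EV it was at 0.376 [0.0687 to 1.37], on the other side of 1 from the family. ANKRD36 was singled out after its values were seen.

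The protein-coding genes whose peak numbers most resembled the family total were ranked by Pearson correlation of log2(peaks + 1) over the 5 lists, among 5528 genes with at least 10 peaks in all. USP17L26, of a multicopy deubiquitinase family, came first at 0.989, with 4, 2, 0, 3 and 4 peaks. The zinc transporter gene SLC30A5 (0.934), KLHL24 (0.934), OTUD5 (0.934) and MZT2B (0.925) followed, each with no more than 4 peaks in any list. With 5 points and numbers this small the ranking is a description only.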

How the data were processed

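MeDIP-seq peaks of 5 conditions in HEK293T cells were analysed, 1 immunoprecipitated and 1 input library each. The submitters' processing notes name Bowtie2, MACS2, deepTools and the GRCh38 build; no version is given in the sources used here, nor are settings or pooling. Each condition has 1 peak list deposited by the authors. The deposited fold enrichment is a ratio over the caller's background at the summit, and the deposited −log10 p-value and −log10 q-value belong to the same summit. These values, all the authors', served only to describe or filter peaks within a list; the lowest −log10 q was 1.30. The list named K-KD was assigned to the KD sample. Inside both KO lists the peak names have prefixes that differ from the list name, and the list name was followed. Another 1 list had a name matching no sample label and was not used.

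The members and the gene lists were chosen with earlier results of these data known. Peaks on chromosomes 1 to 22 and X were joined to RefSeq gene positions of GRCh38.p14, with 2 kb added on both sides and an overlap of at least 1 bp; all 10 members matched. Coordinates are 1-based. The relative ratio is the ratio of peak numbers over that of all peaks. Ratios carry exact Clopper-Pearson, shares Wilson and numbers exact Poisson 95% ranges. Genes whose 2 lists together held at least 5 peaks were called past the fold at (peaks + 1)/(peaks + 1) of at least 2 or at most 0.5. A whole-number pileup n and a background b were worked out for each summit from fold = (n + 1)/(b + 1) and from the deposited p read as a Poisson upper tail, to within 0.001 of the −log10 p. Library depth was otherwise unknown. Promoter windows were aligned in pairs with Biopython 1.88, and identity is over aligned columns, leaving out end gaps and counting inner gaps as differences. Every member is named, as are other NBPF entries with a peak, the 4 fullest genes of the 2 chromosome 1 lists (5 where tied) and the 5 genes most like the family. TBC1D30 to TBC1D32 share only the start of their symbol with TBC1D3 and were left out. Python 3.11.15, pandas 2.3.3, numpy 2.4.6 and scipy 1.17.1 were used, and the counting steps were tested on simulated data. Alternatives were a −log10 q of at least 5, a fold of at least 4, lists of equal length, other gene regions, summits, covered bases, leaving out NBPF19 or NBPF14, and an overlap of 50%. Exons, introns, repeats and the sequence under peaks were not analysed here.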

Additional observations from a re-analysis of the deposited data

Results flagged for a closer look

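The family's relative peak ratio lay on opposite sides of 1 in the knockdown and the knockout comparisons. It was 1.63 for KD against EV. Against WT it was 0.424 for K rep KO and 0.341 for K non-rep KO. NBPF14, highest in KD, and NBPF19, highest in WT, helped choose the family, so these sides of 1 are not independent of the choice. The KD range, 0.898 to 2.96, includes 1. Without NBPF19 the KO ranges, 0.317 to 1.39 and 0.240 to 1.19, include 1 as well. With a −log10 q of at least 5, K rep KO against WT turned to 1.38. The difference between these comparisons was not tested, since each condition has 1 list. EV, without a knockout in its label, was at 0.324 against WT.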

How the results depend on the processing

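No paired analysis was possible because each condition has 1 peak list, and for the same reason no replicate could be left out. The relative ratio of the family kept its direction and stayed within its counting range in 46 of 55 settings. Of these, 5 counted a peak once per member and could not differ, since no peak lay in 2 members. Many others recount the same peaks, so the number does not measure robustness. Leaving out NBPF19 counted as unchanged against WT, yet the ranges then included 1. They were 0.317 to 1.39 for K rep KO, 0.240 to 1.19 for K non-rep KO and 0.241 to 1.02 for EV. Within its counting range, the relative ratio of KD against EV reached 2.67 with a −log10 q of at least 5. With a −log10 q of at least 5 it turned to 1.38 for K rep KO against WT, and became 0.655 for EV against WT and 3.05 between the KO lists (K rep KO over K non-rep KO). With a fold of at least 4 it became, against WT, 0.866 for K rep KO, 0.700 for K non-rep KO and 0.750 for EV. With a summit background under 2 times the common one, a restriction chosen after seeing the data, it turned, against WT, to 1.22 for EV, 1.32 for K rep KO and 1.21 for K non-rep KO, each on 2 WT peaks. The cause was not tested. The family's share of WT peaks became 0.0363% with a −log10 q of at least 5 and 0.0310% with a fold of at least 4, and that of K non-rep KO 0.0164% with the former. With an overlap of 50% of both peaks, shared family peaks came to 11.1% for WT, while K non-rep KO stood at 43.8%. Genes past the fold numbered 1946 for KD against EV, and 3655 for EV, 1694 for K rep KO and 1448 for K non-rep KO against WT. They became 900, 1614, 735 and 740 when scaled to the ratio of all peaks, and 769, 1544, 673 and 525 with at least 10 peaks, since fewer genes were tested. Between the KO lists, 723 became 193 with at least 10 peaks. Between 16 and 27 family peaks per list set the precision, and no read counts were used.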
